A study of Mus musculus with 6 samples.

Results

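Interstitial progenitor factors and platelet-derived growth factor (PDGF) signalling were examined in bulk RNA-seq of whole fetal mouse testes through 8 genes, taken by symbol from the 24470 genes of the count table. These were the transcription factors Tcf21 and Maf, the ligands Pdgfa, Pdgfb, Pdgfc and Pdgfd, and the receptors Pdgfra and Pdgfrb. All 8 were in the table and passed the filter on low counts that left 15577 tested genes. None of the 8 differed between the groups once p-values were adjusted over all tested genes, and the largest difference was that of Pdgfc.

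The 3 control samples came from E12.5 (embryonic day) testes of genotype Ppp1r3c f/f, in which both alleles of Ppp1r3c were floxed and no Cre was present. The 3 cKO (conditional knockout) samples were E12.5 testes of genotype Sf1-Cre Ppp1r3c f/f, so both groups shared the floxed alleles and only the cKO group carried the Cre. Sf1 is another name of Nr5a1, whose sequences drive this Cre in somatic cells of the gonad, including the progenitors of Sertoli cells. The Ppp1r3c protein directs protein phosphatase 1 to glycogen and so favours its synthesis. The gonads of 2 embryos were pooled for each sample, and no control carried the Cre alone. Mice were kept on a C57BL/6 background. Because each library was made from whole tissue, fewer cells of a type and less RNA per cell cannot be told apart in any value below.

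PDGF ligands are secreted dimers that bring together 2 receptor chains and switch on their tyrosine kinases. In the fetal testis Pdgfra is a marker of interstitial progenitors, the cells between the testis cords from which fetal Leydig cells arise, and mice without it form abnormal cords and few fetal Leydig cells. Tcf21 is a basic helix-loop-helix factor and Maf a basic leucine zipper factor, both found in the gonadal mesenchyme.

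Library totals lay between 16139487 and 44145158 counts, with control replicate 1 the lowest. The targeted gene Ppp1r3c was at 24.4, 22.1 and 22.9 CPM (counts per 1000000 counts of the library, whose size was scaled by TMM, a method that corrects for composition) in control replicates 1 to 3, and at 4.71, 5.37 and 5.96 CPM in cKO replicates 1 to 3, with no overlap (log2 fold change -2.11, edgeR adjusted p 0.000126). One library stood apart: cKO replicate 3 held 12534 counts (379 CPM) of Xist, a transcript of XX cells, and no other library held more than 41 counts. The 7 pre-granulosa markers, genes of ovarian supporting cells, summed to 269 CPM in that library, against 83.3 to 100.5 CPM in the controls, 101 CPM in cKO replicate 1 and 97.7 CPM in cKO replicate 2. Differences of the 8 genes are therefore also given without cKO replicate 3.

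To compare the genes with each other, CPM were divided by an exon length for each gene, which gives CPM per kilobase. The lengths came from annotated exons within the span counted for each gene and approximate the length counted. For Maf, Pdgfa and Pdgfd they were 3.64, 1.02 and 1.80 kb of 6.36, 2.06 and 3.15 kb annotated. Longer lengths would lower the levels of these genes, so their places in the order depend on the length used. On this scale Tcf21 had the highest level, at 146 ± 12.3 CPM per kilobase in control and 142 ± 17.8 in cKO testes (SD, n = 3 each), above 97.6% of tested genes with a known length. Pdgfra followed, at 74.9 ± 9.12 and 73.3 ± 4.92 CPM per kilobase (SD, n = 3 each). Pdgfa had 33.8 ± 4.02 and 38.4 ± 2.30 CPM per kilobase (SD, n = 3 each), and Pdgfrb had 28.9 ± 3.75 and 28.7 ± 3.87 (SD, n = 3 each). The ranges of Pdgfa and Pdgfrb overlapped. Pdgfa was the higher of the pair in 5 of 6 libraries, and the pair changed places when all annotated exons were used for the length. Maf had 19.1 ± 2.54 and 19.99 ± 1.66 CPM per kilobase (SD, n = 3 each), close above Pdgfc with 14.0 ± 1.01 and 17.1 ± 1.002 (SD, n = 3 each). Maf was above Pdgfc in every library, by 1.07 to 1.69 times, although the ranges over libraries overlapped. Pdgfb and Pdgfd were the lowest, with 7.04 ± 0.659 and 4.87 ± 0.302 CPM per kilobase in control testes (SD, n = 3 each), and their ranges did not overlap. All other neighbours in the order were also separated in every library. The order of Pdgfb and Pdgfd depended on the length used. With all annotated exons their means were 5.19 and 4.87 CPM per kilobase in control testes, and 5.15 and 5.35 in cKO testes.

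**Figure D1:**
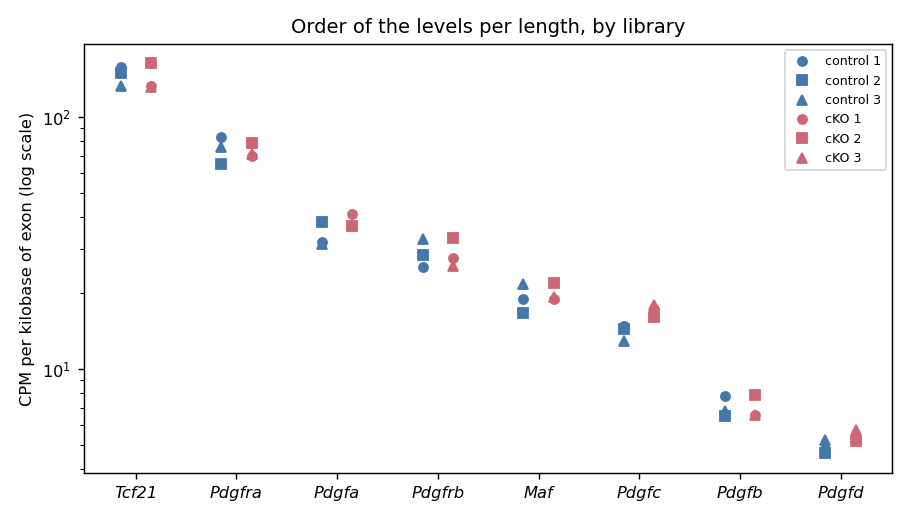
CPM per kilobase of exon (log axis) of the 8 genes in each of the 6 libraries, ordered by the control mean; blue is control, red is cKO, and circles, squares and triangles are replicates 1, 2 and 3. Tcf21 and Pdgfra stand above all the ligands, Pdgfb and Pdgfd are lowest, and blue and red points lie at similar heights.

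To ask whether interstitial progenitor factors differed, Tcf21 and Maf were compared first. Tcf21 (chromosome 10, 22817263 to 22820128, minus strand; coordinates here are of build mm10) was at 192, 182 and 162 CPM in control replicates 1 to 3, and at 161, 199 and 161 CPM in cKO replicates 1 to 3. The control values lay inside the range of the cKO values. Its log2 fold change of cKO over control was -0.04 (SE 0.0927, 95% confidence interval -0.25 to 0.17, edgeR adjusted p 0.902). Without cKO replicate 3 the log2 fold change was 0.01, and the sign also turned without control replicate 1 and without cKO replicate 1, so no direction is given for Tcf21.

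Maf (chromosome 8, 115703253 to 115706894, minus strand) was at 68.7, 60.7 and 79.1 CPM in control replicates 1 to 3. In cKO replicates 1 to 3 it was at 68.7, 79.8 and 70.0 CPM. The groups overlapped, and control replicate 2 was the lowest library. The log2 fold change was 0.07 (SE 0.101, 95% confidence interval -0.16 to 0.29, edgeR adjusted p 0.834). Without cKO replicate 3 it was 0.09, and it turned negative without control replicate 2 or cKO replicate 2. The span that the table gives for Maf, 3.64 kb, held only part of the exon sequence annotated for it, so its counts came from that part.

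Neither receptor was called. Pdgfra, the receptor chain that binds the A, B and C ligand chains (chromosome 5, 75152291 to 75198204, plus strand), was at 590, 461 and 537 CPM in control replicates 1 to 3. In cKO replicates 1 to 3 it was at 496, 558 and 501 CPM. The cKO values lay inside the control range. The difference in the mean was -2.04%, and the log2 fold change was -0.03 (SE 0.0889, 95% confidence interval -0.23 to 0.17, edgeR adjusted p 0.923). As a ratio, this interval runs from 0.853 to 1.13. Counting error was small here, at 0.814% of the level in control libraries, against a spread between control samples of 12.2%.

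Pdgfrb, the receptor chain used by pericytes and smooth muscle around vessels (chromosome 18, 61045150 to 61085067, plus strand), was at 137, 153 and 178 CPM in control replicates 1 to 3. In cKO replicates 1 to 3 it was at 148, 178 and 138 CPM. The 2 groups covered nearly the same range. The log2 fold change was -0.01 (SE 0.110, 95% confidence interval -0.26 to 0.23, edgeR adjusted p 0.976). Without cKO replicate 3 Pdgfra was at -0.0047 and Pdgfrb at 0.06 on the log2 scale, and both crossed 0 when some of the other libraries were left out singly. Of the summed level of both receptors per kilobase, Pdgfra made up 72.1% ± 3.97 in control and 72.0% ± 1.49 in cKO testes (SD, n = 3 each).

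**Figure D2:**
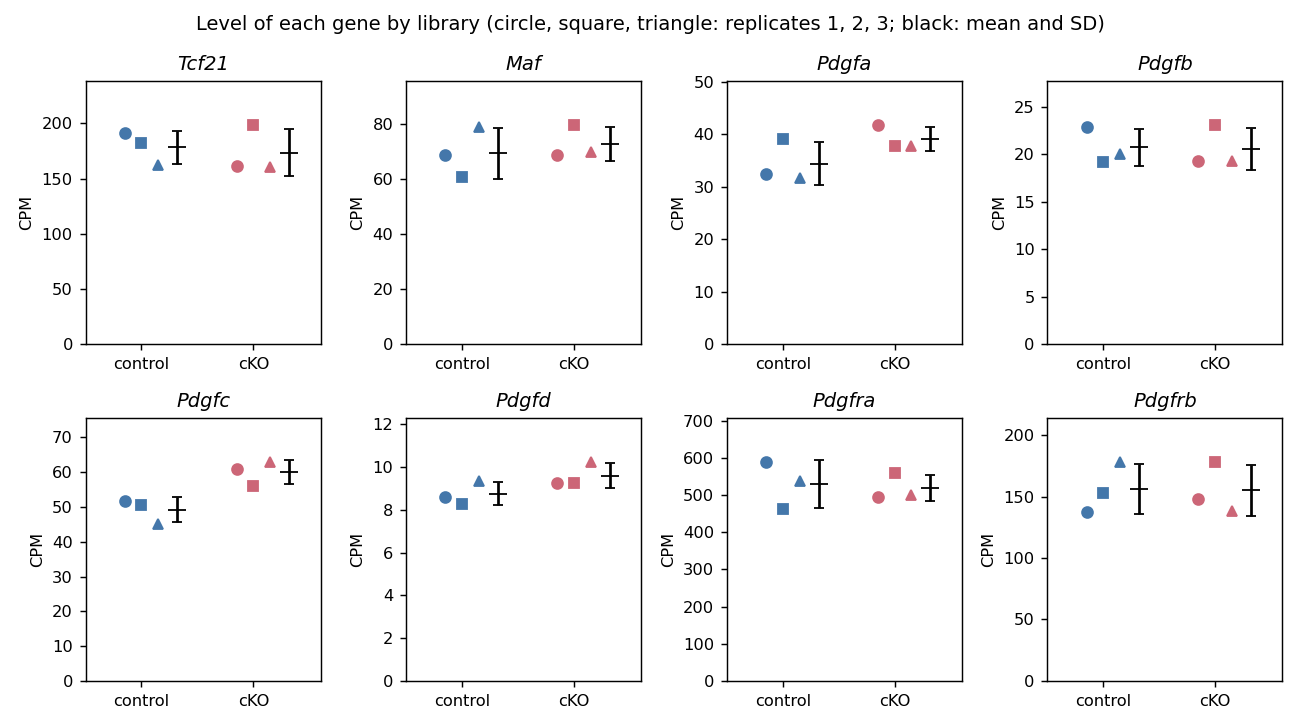
CPM of each of the 8 genes in the 3 control (blue) and 3 cKO (red) libraries, with the mean and SD of each group in black; circles, squares and triangles are replicates 1, 2 and 3, and each axis starts at 0. The groups overlap for all genes but Pdgfc, whose cKO libraries lie between 56.1 and 63.0 CPM and whose control libraries lie between 45.1 and 51.8 CPM.

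Among the ligands, 3 of 4 had a positive log2 fold change and none was called. Pdgfc (chromosome 3, 81036416 to 81214031, plus strand) encodes a chain that is secreted in a latent form and is activated when its CUB domain is cut off. It was at 51.8, 50.6 and 45.1 CPM in control replicates 1 to 3, and at 60.8, 56.1 and 63.0 CPM in cKO replicates 1 to 3. Each cKO library was above each control library. The difference in the mean was 21.9%, with a log2 fold change of 0.29 (SE 0.0755, 95% confidence interval 0.12 to 0.46). The unadjusted edgeR p was 0.00379, rank 135 of 15577 genes, and the adjusted p was 0.377. An exact two-sided permutation test gave 0.1, and 3 against 3 samples allow no smaller p.

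The call for Pdgfc was missed by every test on all 6 libraries. DESeq2, the tool used by the authors, gave an adjusted p of 0.0693. With 1 library left out in turn, edgeR gave log2 fold changes of Pdgfc between 0.22 and 0.33 and no call. DESeq2 called it in 1 such case, without control replicate 1, the shallowest library, with a log2 fold change of 0.33 and an adjusted p of 0.0327. In that fit 2.15% of all genes with an adjusted p were called. Without cKO replicate 3 the edgeR log2 fold change was 0.25 (adjusted p 0.633).

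Pdgfa, made by Sertoli cells in the fetal testis (chromosome 5, 138976971 to 138994953, minus strand), was at 32.4, 39.1 and 31.7 CPM in control replicates 1 to 3. In cKO replicates 1 to 3 it was at 41.8, 37.7 and 37.8 CPM. Control replicate 2 lay above 2 of the 3 cKO libraries, so the groups overlapped. The log2 fold change was 0.18 (SE 0.0916, 95% confidence interval -0.03 to 0.39, edgeR adjusted p 0.480). It was 0.21 without cKO replicate 3 and 0.28 without control replicate 2, where its unadjusted edgeR p was 0.00769 and its adjusted p 0.702.

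Pdgfb, the chain that endothelial cells release to recruit pericytes (chromosome 15, 79995874 to 80014808, minus strand), was at 22.9, 19.2 and 20.1 CPM in control replicates 1 to 3. In cKO replicates 1 to 3 it was at 19.3, 23.1 and 19.3 CPM. The group means were 20.7 ± 1.94 and 20.6 ± 2.19 CPM (SD, n = 3 each). The log2 fold change was -0.0039 (95% confidence interval -0.23 to 0.23, edgeR adjusted p 0.992), a value without a stable sign, which was 0.04 without cKO replicate 3.

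Pdgfd, a latent chain that like Pdgfc carries a CUB domain and that acts mainly through Pdgfrb (chromosome 9, 6168612 to 6377519, plus strand), had the fewest counts. Control replicates 1 to 3 held 140, 366 and 383 counts, or 8.62, 8.28 and 9.34 CPM. The cKO replicates 1 to 3 held 372, 333 and 339 counts, or 9.28, 9.26 and 10.3 CPM. Control replicate 3 was above 2 of the cKO libraries, so the groups overlapped. The log2 fold change was 0.13 (SE 0.112, 95% confidence interval -0.12 to 0.38, edgeR adjusted p 0.673), and 0.08 without cKO replicate 3. Counting error alone came to 6.45% of its level in control libraries, about as large as the 6.20% spread between them.

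**Figure D3:**
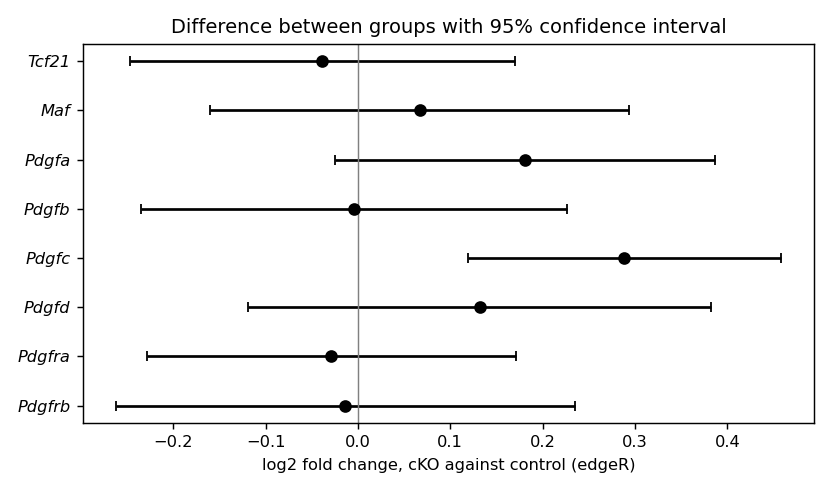
Log2 fold change of cKO over control for the 8 genes (edgeR), with 95% confidence intervals. The interval of Pdgfc, 0.12 to 0.46, is the one that leaves out 0 before adjustment, and the others include 0.

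Read over the set, 0 of the 8 genes were called by edgeR at an adjusted p below 0.05, against 0.0385% of all tested genes, and DESeq2 also called 0, against 0.779%. At an unadjusted p below 0.05 there was 1 of 8, Pdgfc, against 11.4% of all tested genes by edgeR. One gene of 8, again Pdgfc, had groups that did not overlap, against 15.6% of all tested genes, 8.42% of them higher and 7.17% lower in cKO testes. These shares of the 8 genes are near the background. Of the log2 fold changes, 4 were above 0 and 4 below, with a median of 0.03, and the median over all tested genes was -0.0034. The count at an unadjusted p below 0.05 was also 1 without cKO replicate 3, against 7.83% of all genes tested in that fit. It was 2 without control replicate 2, where Pdgfa joined Pdgfc, against 7.0% of all genes.

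**Figure D4:**
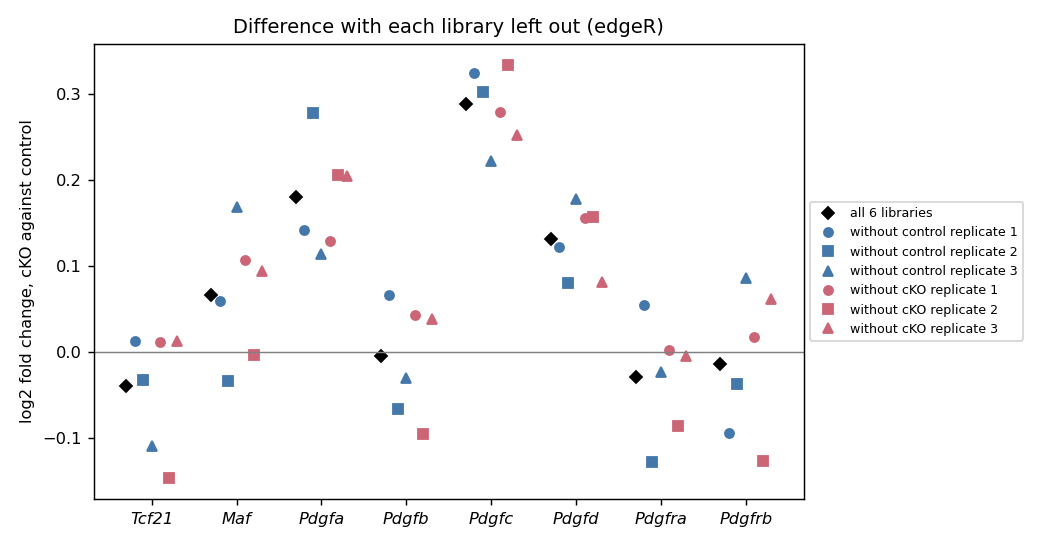
Log2 fold change of the 8 genes (edgeR) with all 6 libraries (black) and with each library left out; blue marks a control library left out and red a cKO library left out, with circles, squares and triangles for replicates 1, 2 and 3. Pdgfc (0.22 to 0.33), Pdgfa and Pdgfd stay above 0 in each case, while the other 5 genes lie on both sides of 0.

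The makeup of the ligand pool was described per kilobase, without a test. Its shares depend on the exon lengths used. The length of Pdgfa was 1.02 kb, part of 2.06 kb annotated, and that of Pdgfd 1.80 kb, part of 3.15 kb. A longer length would lower the levels per kilobase of these 2 ligands. Pdgfa was the largest part, with 56.5% ± 3.23 of the ligand sum in control and 56.6% ± 1.80 in cKO testes (SD, n = 3 each). Pdgfc made up 23.5% ± 1.29 and 25.2% ± 1.30 (SD, n = 3 each). Pdgfb made up 11.8% ± 1.51 and 10.3% ± 1.36, and Pdgfd 8.21% ± 1.04 and 7.89% ± 0.560 (SD, n = 3 each). The groups overlapped for each of the 4 shares. The ligand sum itself was 59.1, 63.9 and 56.0 CPM per kilobase in control replicates 1 to 3 and 70.0, 66.0 and 67.3 in cKO replicates 1 to 3, which did not overlap. Of its parts, Pdgfc alone had groups that did not overlap. Among all tested genes 15.6% had such groups. The receptor sum was 103.7 ± 8.79 and 102.0 ± 8.68 CPM per kilobase (SD, n = 3 each). With these lengths it was 1.75 ± 0.252 times the ligand sum in control and 1.51 ± 0.165 times in cKO testes (SD, n = 3 each), with overlapping groups.

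Several of the genes were high in the same library. In the cKO group, replicate 2 held the highest level of 5 of the 8 genes, namely Tcf21, Maf, Pdgfb, Pdgfra and Pdgfrb. The same library had the highest sum of the 12 other interstitial progenitor markers, at 3525 CPM against 3371 and 2989 CPM in cKO replicates 1 and 3. Among the cKO libraries it also had the highest sums of Sertoli (1819 CPM), fetal Leydig (507 CPM), pericyte and mural (440 CPM) and endothelial (760 CPM) markers, so this was not particular to interstitial markers. It had the lowest sum of the 7 germ cell markers, at 188 CPM against 426 and 314 CPM. The part of tissue makeup in the values of the 8 genes was not tested.

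The other markers of the same cells were then compared. Of the 12 interstitial progenitor markers, all tested, none was called. Their median log2 fold change was -0.06 (0.03 without cKO replicate 3 and 0.04 without control replicate 3), with 4 genes higher and 8 lower and groups that overlapped for each gene. The lowest p belonged to Gli1, a target of hedgehog signalling (log2 fold change -0.18, SE 0.0895, edgeR adjusted p 0.474). All 12 markers were detected. Nr2f2, a nuclear receptor of the interstitium, was at 263 to 322 CPM over the 6 libraries.

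Cells that could also carry these transcripts were checked through their markers. The 8 pericyte and mural markers summed to 417 to 464 CPM in control and 366 to 440 CPM in cKO libraries, and their median log2 fold change was -0.12 (0.01 without cKO replicate 3). Their gene of lowest p was Mcam, an adhesion molecule, with a log2 fold change of -0.22 (edgeR adjusted p 0.377). Its groups did not overlap, at 88.7 to 94.8 CPM in control and 73.9 to 82.2 CPM in cKO libraries. Mcam was the 1 of 8 markers lower without overlap, against 7.17% of all tested genes. Rgs5, a pericyte marker with fewer counts, was at 6.46, 16.4 and 7.73 CPM in control replicates 1 to 3 and 20.3, 14.0 and 20.9 CPM in cKO replicates 1 to 3, with overlap (0.81, edgeR adjusted p 0.389). The 8 endothelial markers summed to 660 to 746 CPM in control and 649 to 760 CPM in cKO libraries. Pecam1 was the gene of lowest p (log2 fold change -0.19, edgeR adjusted p 0.377). It was the 1 endothelial marker lower without overlap, at 119 to 126 CPM in control and 104 to 110 CPM in cKO libraries. Of the 8 endothelial markers 4 had a positive and 4 a negative log2 fold change, with a median of 0.0034. The 8 fetal Leydig markers summed to 358 to 563 CPM in control and to 375, 507 and 257 CPM in cKO replicates 1 to 3, with all 8 log2 fold changes below 0, a median of -0.29 and no gene called. This median moved with single libraries. It was -0.10 with either cKO replicate 3 or control replicate 3 left out and -0.42 with control replicate 1 left out. Leaving out cKO replicate 2 gave -0.53, and then 5 of 8 genes were lower at an unadjusted edgeR p below 0.05 against 3.59% of all genes. The lowest p was that of Insl3 (log2 fold change -0.33, edgeR adjusted p 0.617). The 8 Sertoli markers summed to 1402 to 1810 CPM in control and 1293 to 1819 CPM in cKO libraries, with Sox9 (0.28, edgeR adjusted p 0.377) of lowest p. Sox9 was among 3 Sertoli markers with a positive log2 fold change, and 5 were lower. The Sertoli median was -0.08 (0.04 without cKO replicate 3).

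The remaining markers showed what else the tissue held. The 7 germ cell markers summed to 415 to 680 CPM in control and 188 to 426 CPM in cKO libraries, with a median of -0.88. At an unadjusted edgeR p below 0.05 there were 7 of 7 lower in cKO testes, against 5.8% of all tested genes. This count was 5 without control replicate 2 and 4 without control replicate 3. In those fits 7.0% and 8.55% of all genes passed in either direction. None of the 7 markers was called, and Dppa3 was the gene of lowest p (-1.24, edgeR adjusted p 0.377). The 8 macrophage markers summed to 32.9 to 37.7 CPM in control and 35.1 to 36.5 CPM in cKO libraries, with Mrc1 (0.29, edgeR adjusted p 0.380) of lowest p. Mrc1 was the 1 macrophage marker with a positive log2 fold change, and 7 were lower. The macrophage median was -0.09 (-0.22 without control replicate 3). The 4 megakaryocyte markers summed to between 21.2 and 24.9 CPM in each library, with Gp9 (-0.23, edgeR adjusted p 0.729) of lowest p. Of 6 mesonephros markers 4 were tested, with sums of 20.8 to 28.5 CPM in control and 17.6 to 28.5 CPM in cKO libraries and Pax8 (0.52, edgeR adjusted p 0.377) of lowest p. The 6 erythroid markers summed to 2541 to 3144 CPM in control and 2244 to 2935 CPM in cKO libraries, with Hbb-bh1 (0.42, edgeR adjusted p 0.443) of lowest p. Among pre-granulosa markers Fst had the lowest p (4.02, edgeR adjusted p 0.380), with 50.9 CPM in cKO replicate 3 against at most 2.02 CPM elsewhere. Their median was 0.70 with that library and 0.16 without it. No marker list had a gene at 0 in every library.

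Genes that act on PDGF ligands and receptors were examined as lists. Of 10 genes that process or bind the ligands, none was called, and 9 had a positive log2 fold change, with a median of 0.11. At an unadjusted edgeR p below 0.05 there were 2 of 10 higher and 0 lower, against 5.56% and 5.8% of all tested genes. The count was 3 of 10 higher without cKO replicate 3, against 3.54% of all genes. Plat, a plasminogen activator known to cut the Pdgfc protein free, had the lowest p. It was at 102, 104 and 90.7 CPM in control replicates 1 to 3 and at 110, 113 and 119 CPM in cKO replicates 1 to 3, without overlap. Its log2 fold change was 0.21 (SE 0.0658, edgeR adjusted p 0.377). Plau, the related protease that cuts Pdgfd, had groups that overlapped (log2 fold change 0.09, edgeR adjusted p 0.798).

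Of 25 genes that act below the receptors (adaptors, kinases and transcription factors), none was called. Their median was 0.04 on the log2 scale, with 18 above and 7 below 0. At an unadjusted edgeR p below 0.05 there were 4 of 25 higher and 0 lower, against 5.56% and 5.8% of all tested genes. The count was 1 of 25 higher without cKO replicate 3, against 3.54%. The groups did not overlap for 7 of 25 genes, all higher in cKO libraries, against 8.42% of all tested genes. Stat3, a transcription factor activated by receptor kinases, had the lowest p (log2 fold change 0.22, SE 0.0606, edgeR adjusted p 0.377). Its groups did not overlap, at 51.0 to 54.5 CPM in control and 59.4 to 62.9 CPM in cKO libraries. Of 12 genes that attenuate the receptors, 6 were above and 6 below 0, none was called, and the median was 0.0069 (0.08 without control replicate 1). At an unadjusted edgeR p below 0.05 there were 2 of 12 higher and 0 lower, and 4 of 12 were higher in cKO libraries without overlap, against the same background. The count at this p was 0 of 12 without control replicate 2, cKO replicate 1 or cKO replicate 2. In those fits 7.0%, 13.8% and 8.8% of all genes passed in either direction. Without cKO replicate 3 there were 2 of 12 higher and 1 lower, against 7.83% in either direction. The phosphatase gene Ptprj had the lowest p (0.20, SE 0.0740, edgeR adjusted p 0.384).

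**Figure D5:**
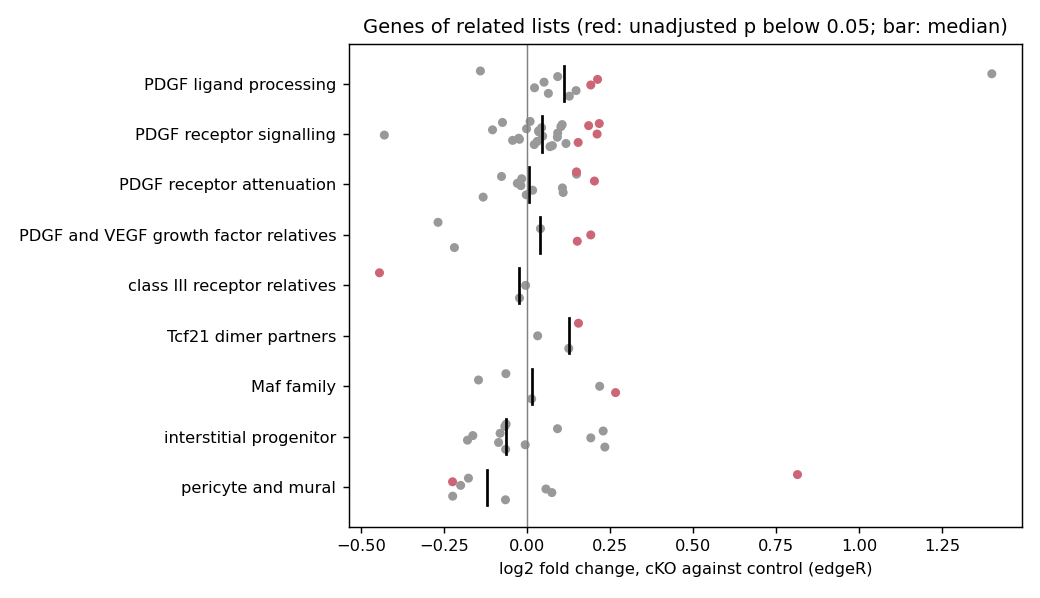
Log2 fold change of cKO over control (edgeR) for each tested gene of 9 related lists; red points have an unadjusted p below 0.05 and black bars are medians. Most points lie within 0.25 of 0, and no gene was called after adjustment.

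Relatives of the ligands, receptors and factors were compared last. Of the 5 other cystine-knot growth factors, Vegfa and Vegfb passed an unadjusted p of 0.05 and none was called. Vegfb had the lowest p, at 32.3 to 34.1 CPM in control and 36.1 to 39.6 CPM in cKO libraries (log2 fold change 0.19, SE 0.0645, edgeR adjusted p 0.377). Without cKO replicate 3 neither of them passed an unadjusted p of 0.05. Of the 3 related receptors, Kit, which is made by germ cells, had the lowest p (-0.45, SE 0.173, edgeR adjusted p 0.400). It was at 70.9, 97.5 and 112 CPM in control replicates 1 to 3 and 83.3, 56.0 and 67.7 CPM in cKO replicates 1 to 3, so the groups overlapped. Tcf21 pairs with E proteins, of which Tcf3, Tcf4 and Tcf12 had log2 fold changes of 0.03, 0.15 and 0.13 with no call, and their median was 0.13 (0.04 without cKO replicate 3). Tcf4 had the lowest p (edgeR adjusted p 0.404). Of 6 other Maf factors 5 were tested and none was called, with a median of 0.01 (0.23 without cKO replicate 3).

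The tested genes whose pattern over the 6 libraries was closest to that of Pdgfc, the gene of lowest p among the 8, were Pde4b, Aldh3a2 and 3300002I08Rik. The root mean square difference of their centred log2 CPM from that of Pdgfc was 0.018, 0.032 and 0.039. In all, 333 genes lay within 0.1 of Pdgfc on this measure, so a close match was common. Along the genome the nearest tested gene to Pdgfc was Glrb, 122.8 kb away, with a log2 fold change of -0.07 (edgeR adjusted p 0.927). The other genes of the table that overlapped a member, Mir7213 in Pdgfb, Mir7025 in Pdgfra and Ddi1 in Pdgfd, were at means of 0.0724 CPM or less in either group.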

How the data were processed

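RNA was sequenced from 6 pooled samples of E12.5 testes, 3 control and 3 cKO, grouped by their titles. Raw counts of read pairs per gene were deposited. The authors prepared TruSeq stranded mRNA libraries, aligned read pairs to mm10 with STAR (version 2.5 in the submitters' processing notes), and counted RefSeq Curated genes with featureCounts (Subread version 1.5.0-p1) by strand. The table held 24470 genes, and 0 columns of per-sample values were left unused.

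The main test was edgeR (version 4.0.16, R 4.3.3), which filtered genes by filterByExpr (minimum count 10), scaled libraries by TMM and compared cKO with control by its quasi-likelihood test. Benjamini-Hochberg adjustment covered all genes tested, and genes with an adjusted p below 0.05 are called. SE and 95% confidence intervals were derived from the F statistic. Log2 CPM used a prior count of 2. Lengths were unions of GENCODE M21 exons with a RefSeq match, clipped to the span in the table. These lengths approximate the counted models. Permutation tests were two-sided and exact. DESeq2 (version 1.42.0), limma-voom (limma version 3.58.1), RLE factors, other filters, a replicate block and single samples left out were alternatives. The model fits were tested on simulated data.

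The 8 genes, the other lists and the tests were chosen with earlier results of these data known. Named genes are the 8, Ppp1r3c, Xist, the gene of lowest p and any called gene in each list, the nearest and overlapping genes, the 3 genes most like the member of lowest p, and genes shown as examples of markers or relatives, some chosen after their values were seen. Some genes that this rule names are not reported here. Samples are separate pools, and p-values measure the spread between these pools only.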

Additional observations from a re-analysis of the deposited data

How the results depend on the processing

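The alternatives with DESeq2 and a single sample left out were chosen after seeing the data. edgeR called 5 genes higher and 1 lower on all samples, DESeq2 57 and 54. A filter that asked for a CPM of 1 or more in 3 samples gave 3 higher, the replicate block 2 higher, and limma-voom and no filter 2 lower each. Without single samples edgeR called 1 to 5 higher and 1 to 3 lower, and DESeq2 called, in that order, 100, 48 and 31 higher and 213, 4 and 17 lower without control replicates 1 to 3, and 89, 64 and 9 higher and 211, 18 and 5 lower without cKO replicates 1 to 3. The cause was not tested.

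Of the 8 genes, 0 were called in each of the 12 other alternatives, and 0 to 1 by DESeq2 without single samples (Pdgfc without control replicate 1, log2 fold change 0.33). With control replicate 3 left out, 5 of the 8 genes had no adjusted p in DESeq2. Pdgfa, Pdgfc and Pdgfd kept a positive sign throughout. Pdgfb was at 0.00043 with DESeq2 and 0.018 with limma-voom. Without single samples edgeR gave -0.15 to 0.014 for Tcf21, -0.034 to 0.17 for Maf, -0.095 to 0.067 for Pdgfb, -0.13 to 0.055 for Pdgfra and -0.13 to 0.086 for Pdgfrb, and DESeq2 gave -0.15 to 0.018, -0.024 to 0.18, -0.092 to 0.071, -0.12 to 0.060 and -0.12 to 0.096 in that order. Its other values of turned sign were 0.017 and 0.016 for Tcf21, 0.048 and 0.041 for Pdgfb and 0.025 and 0.067 for Pdgfrb without cKO replicates 1 and 3, 0.0079 for Pdgfra without cKO replicate 1, and -0.0020 for Maf without cKO replicate 2. No direction is read from these 5 genes.

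Whether the replicate numbers pair the samples is not known. Once the mean of each group was taken out, the control and cKO libraries of replicates 1, 2 and 3 correlated at -0.20, -0.27 and -0.13. No positive link was seen, but with 3 libraries per group a single library can govern such values. They therefore do not decide whether the samples were paired. With the replicate block Pdgfc had a log2 fold change of 0.29 (edgeR adjusted p 0.777), and the other 7 genes were not called either. Of 252 list medians recomputed, 7 moved by more than the spread between samples. Depth limited Pdgfd most, with 140 counts in the shallowest library.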
